A study of Bos taurus with 3 samples.

Results

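Extracellular vesicles of skimmed bovine milk (BM-EVs) carried 8 miRNAs that are characteristic of blood and immune cells, and these are described here: bta-miR-223, bta-miR-142-5p, bta-miR-142-3p, bta-miR-150, bta-miR-342, bta-miR-146a, bta-miR-146b and bta-miR-155. They were chosen by name and not by a rule on their levels, although earlier results of these data were known. They are 8 of the 745 miRNAs listed in at least 1 library. All samples belonged to 1 group, normal and untreated milk of Bos taurus, with 3 small RNA libraries, named 1 to 3 after the replicate number in their titles, and no control group. The milk was commercial, pasteurized and skimmed. The vesicles were salted out with ammonium sulfate after acid removal of casein, and had not been loaded with any cargo. The study used milk samples of different expiration dates as biological replicates, but which milk gave which library is not known from the labels or the methods, so the spread between libraries may be partly technical. The labels and methods give neither the breed, the age nor the number of the cows.

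These miRNAs are known from a few cell lineages, and their cells of origin in BM-EVs were not measured. MiR-223 is abundant in neutrophils and other myeloid cells, and miR-142 is made in nearly all blood cells, where both arms of its hairpin can act. MiR-150 marks mature B and T lymphocytes and is known in mice to limit the transcription factor Myb, while miR-342 is found in lymphocytes and in maturing myeloid cells. MiR-146a and miR-146b are induced by NF-κB and in human cells dampen Toll-like receptor signalling through IRAK1 and TRAF6. MiR-155 is induced in activated lymphocytes and macrophages, and in human endothelial cells it represses eNOS, which is why the study loaded a synthetic miR-155-5p into BM-EVs. In milk, such miRNAs can come from somatic cells such as neutrophils and macrophages, or from blood, and bulk vesicle RNA cannot tell the number of vesicles of a cell type from their miRNA content.

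According to RefSeq (ARS-UCD2.0), the 7 precursor genes lie on 7 different chromosomes. MIR155 lies on chromosome 1, MIR146A on chromosome 7, MIR146B on chromosome 26 and MIR150 on chromosome 18. None of these 4 overlaps another gene. MIR142, on chromosome 19, overlaps TSPOAP1 and a long non-coding RNA, MIR342, on chromosome 21, overlaps EVL, and MIR223, on the X chromosome, overlaps VSIG4 and a long non-coding RNA. Mature sequences were not used here.

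Levels are given as raw counts of unique molecular indices (UMIs), tags that let PCR copies be counted once, or as a share of the summed mature miRNA UMIs of its library. The mature miRNA UMIs summed to 77225, 373239 and 102058 in libraries 1, 2 and 3. The lowest count in each table was 11, so an unlisted miRNA had at most 10 UMIs. This is a share of up to 0.0129%, 0.00268% and 0.00980% in the 3 libraries, and such a miRNA is not known to be absent. Library 2 stood apart, with mature miRNA making up 16.2% of all miRNA and Rfam UMIs, against 7.08% and 10.6% in libraries 1 and 3. Wilson 95% confidence intervals are given for shares and cover counting error only.

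Of the 8 leukocyte miRNAs, 6 were listed in every library, and miR-142-3p and miR-146a were listed in libraries 2 and 3 only. Together they held 283, 1328 and 529 UMIs in libraries 1, 2 and 3. Their summed share was 0.366% (0.326 to 0.412%), 0.356% (0.337 to 0.375%) and 0.518% (0.476 to 0.564%), so library 3 was the highest and its interval did not overlap with the others. Library 3 was also the highest when the 10 most abundant miRNAs were left out of the denominator. Library 2 was instead the highest with 3 other denominators. The list held 0.0259%, 0.0575% and 0.0548% of all miRNA and Rfam UMIs in libraries 1, 2 and 3. It held 0.270%, 0.634% and 0.395% of totals scaled by TMM, and 0.258%, 0.633% and 0.414% of totals scaled by DESeq2 size factors. Both scalings set the typical miRNA to the same level in each library. MiR-223 and miR-342 accounted for 68.2%, 77.4% and 51.4% of these UMIs. The remaining 6 miRNAs held 0.117%, 0.0804% and 0.252% of the miRNA UMIs, again highest in library 3. As a reference for the tissue, all 8 miRNAs of a mammary epithelial list were listed in every library with 12.6% ± 2.25 (SD, n = 3), led by miR-148a at 5.18% ± 0.533 and miR-200c at 3.33% ± 0.911. The lowest of this list, miR-429 (0.0713% ± 0.0117) and miR-205 (0.0163% ± 0.00391), had mean shares below those of miR-223 and miR-342. The epithelial list had 29.4, 42.4 and 22.8 times as many UMIs as the leukocyte list in libraries 1, 2 and 3. The part of the epithelial share in the library differences of the leukocyte list was not tested.

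**Figure D1:**
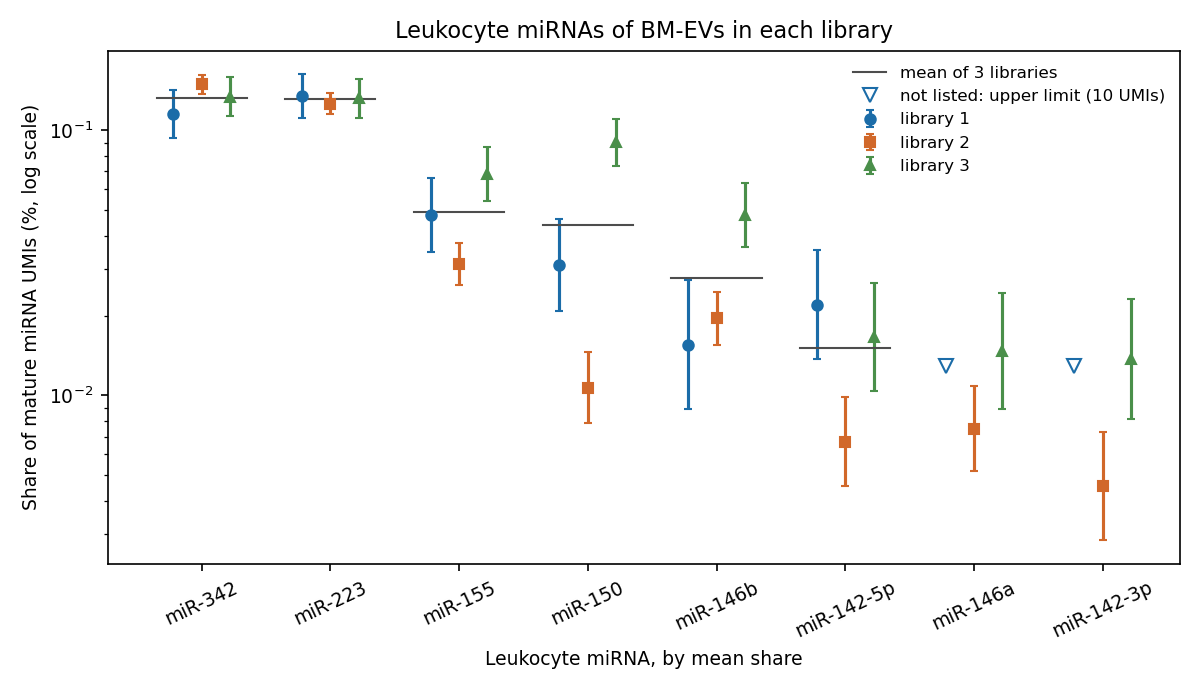
Share of mature miRNA UMIs (%, log scale) of each leukocyte miRNA in library 1 (circles), library 2 (squares) and library 3 (triangles), with Wilson 95% intervals as bars, the mean of 3 libraries as a line, and open triangles for the upper limit of 10 UMIs where a miRNA was not listed. MiR-342 and miR-223 lie together between 0.115% and 0.149%, while miR-150 ranges between 0.0107% and 0.0901%.

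MiR-223, the myeloid miRNA, had 104, 471 and 135 UMIs in libraries 1, 2 and 3. Its share was 0.135%, 0.126% and 0.132%, and all 3 intervals overlapped. The mean was 0.131% ± 0.00437 (SD, n = 3), a coefficient of variation of 3.34% where counting error alone would give 8.12%. It ranked 59 of 507, 55 of 622 and 65 of 628 listed miRNAs. Of the 435 miRNAs listed in every library, 4 had a lower coefficient of variation.

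MiR-342, the lymphoid and myeloid miRNA from the EVL locus, had 89, 557 and 137 UMIs, or 0.115%, 0.149% and 0.134%. Its mean of 0.133% ± 0.0170 was nearly that of miR-223, and its coefficient of variation was 12.8%. It was higher than miR-223 in 2 of 3 libraries, and the mean difference of 0.00186% ± 0.0212 was far smaller than its spread. These 2 miRNAs, a myeloid one and one found in both lymphocytes and maturing myeloid cells, were thus the most abundant of the group in every library. The other 6 had lower shares in each library.

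MiR-155, the miRNA of activated immune cells that the study later loaded into BM-EVs, was present before loading with 37, 117 and 70 UMIs. Its share was 0.0479% (0.0348 to 0.0660%), 0.0313% (0.0262 to 0.0376%) and 0.0686% (0.0543 to 0.0866%). Library 3 was higher than library 2 by 2.19-fold without overlap of the intervals, and library 1 overlapped with both. This difference was not seen with TMM-scaled totals (0.0353%, 0.0558% and 0.0523%) or with DESeq2 size factors (0.0337%, 0.0558% and 0.0548%), where library 2 was slightly the higher. It ranked 165 of 507, 125 of 622 and 130 of 628, so that 66.1%, 79.9% and 79.1% of the listed miRNAs had fewer UMIs. Its level was 33.9, 50.6 and 72.5 UMIs in every 1000000 miRNA and Rfam UMIs (CPM). Let-7b, the most abundant miRNA of BM-EVs, had 596, 988 and 390 times as many UMIs. MiR-155 was lower than miR-223 in 3 of 3 libraries, with ratios of miR-155 to miR-223 of 0.356, 0.248 and 0.519.

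The miRNAs with the levels most like those of miR-155, by the root mean square difference of the log2 share over 3 libraries, were miR-1281 (0.06), miR-1306 (0.12) and miR-4449 (0.17). MiR-1281 had 37, 115 and 65 UMIs. For miR-342 they were miR-99b (0.09), miR-93 (0.16) and miR-223 (0.19), so that another leukocyte miRNA was among its nearest. Likeness over 3 libraries is a description of levels.

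**Figure D2:**
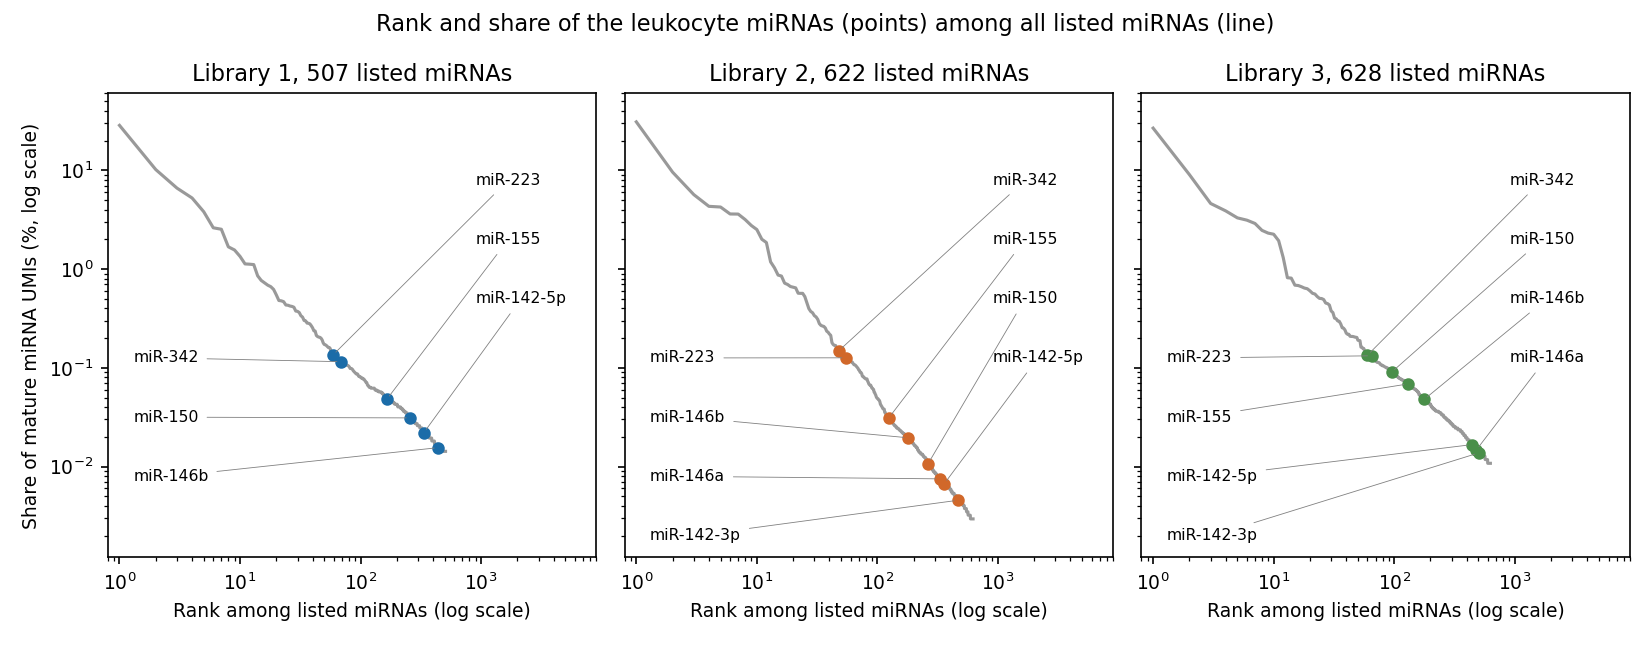
Share of mature miRNA UMIs (%, log scale) against rank (log scale) of all listed miRNAs in each library (line), with the leukocyte miRNAs as points. MiR-223 and miR-342 ranked between 48 and 69 in the 3 libraries, while miR-150 ranked 259, 264 and 95.

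MiR-150, the miRNA of mature lymphocytes, differed most between the libraries. It had 24, 40 and 92 UMIs in libraries 1, 2 and 3, or 0.0311% (0.0209 to 0.0462%), 0.0107% (0.00787 to 0.0146%) and 0.0901% (0.0735 to 0.111%). None of the 3 intervals overlapped with another, and library 3 was 8.41-fold higher than library 2, although library 2 had the most UMIs in all. This holds for the share of mature miRNA UMIs. With TMM-scaled totals the levels were 0.0229%, 0.0191% and 0.0687%, so that libraries 1 and 2 were close to each other and library 3 remained the highest. In library 3 miR-150 ranked 95 and had more UMIs than miR-155, whereas in libraries 1 and 2 it had fewer. Its mean of 0.0440% ± 0.0413 rests on library 3, as it was 0.0209% without that library. Its coefficient of variation of 93.8% was higher than that of 418 of the 435 miRNAs listed in every library.

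MiR-146b, an NF-κB-induced inhibitor of Toll-like receptor signalling, had 12, 73 and 49 UMIs, or 0.0155%, 0.0196% and 0.0480%. Library 3 (0.0363 to 0.0635%) lay above library 1 (0.00889 to 0.0272%) and library 2 (0.0156 to 0.0246%), which overlapped with each other. With TMM-scaled totals the levels were 0.0115%, 0.0348% and 0.0366%, so that library 2 was close to library 3 and library 1 was the lowest. The mean was 0.0277% ± 0.0177, and 0.0175% without library 3. MiR-146a, its close relative, had 28 and 15 UMIs in libraries 2 and 3, or 0.00750% and 0.0147%, and was not listed in library 1. There were 2.61 (95% exact interval 1.67 to 4.19) and 3.27 (1.80 to 6.27) UMIs of miR-146b for each UMI of miR-146a in libraries 2 and 3. MiR-146b thus exceeded miR-146a by more than counting error in both. As these relatives are near-identical in sequence and the handling of ambiguous reads is not stated, the split between them is uncertain.

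Both arms of miR-142, the pan-leukocyte hairpin, were near the listing limit. MiR-142-5p had 17, 25 and 17 UMIs, or 0.0220%, 0.00670% and 0.0167%, and library 2 was the lowest without overlap with the others. Its intervals overlapped with TMM-scaled totals, at 0.0162%, 0.0119% and 0.0127%. MiR-142-3p had 17 and 14 UMIs in libraries 2 and 3, or 0.00455% and 0.0137%, and at most 10 UMIs in library 1. The ratio of the 5p to the 3p arm was 1.47 (0.763 to 2.90) in library 2 and 1.21 (0.563 to 2.66) in library 3. Both intervals include 1, so a difference between the arms was not detectable at this depth. In library 1, the counted ratio was at least 1.7.

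The order by mean share was miR-342, miR-223, miR-155, miR-150, miR-146b, miR-142-5p, miR-146a and miR-142-3p. Of the 7 pairs of neighbours, only miR-223 above miR-155 held in all 3 libraries (exact two-sided sign permutation test, p = 0.25, adjusted p = 0.7 over 7 pairs), and the other pairs held in 2 of 3, where both miRNAs of the last pair were unlisted in library 1. The p of these other pairs lay between 0.5 and 1, and 3 libraries allow no p below 0.25. The test could therefore resolve no pair, and the order is a description. MiR-150 was above miR-155 when library 1 or library 2 was left out, and miR-223 above miR-342 when library 2 was left out.

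Of the 6 leukocyte miRNAs listed in every library, 4 (miR-142-5p, miR-150, miR-146b and miR-155) had at least 1 pair of libraries whose intervals did not overlap. Over all 435 miRNAs listed in every library this share was 83.7%, so differences between libraries beyond counting error were the rule and are no property of the leukocyte miRNAs. The median coefficient of variation was 44.6% for these 6 and 50.8% for all 435. Library 3 was higher than library 2 for all 4, as for 56.1% of the 435, and lower for none of the 6. Library 2 was lower than library 1 for miR-142-5p and miR-150, as for 66.4% of the 435. Library 3 was higher than library 1 for miR-150 and miR-146b, as for 12.4% of the 435. These comparisons are between libraries and not between conditions.

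**Figure D3:**
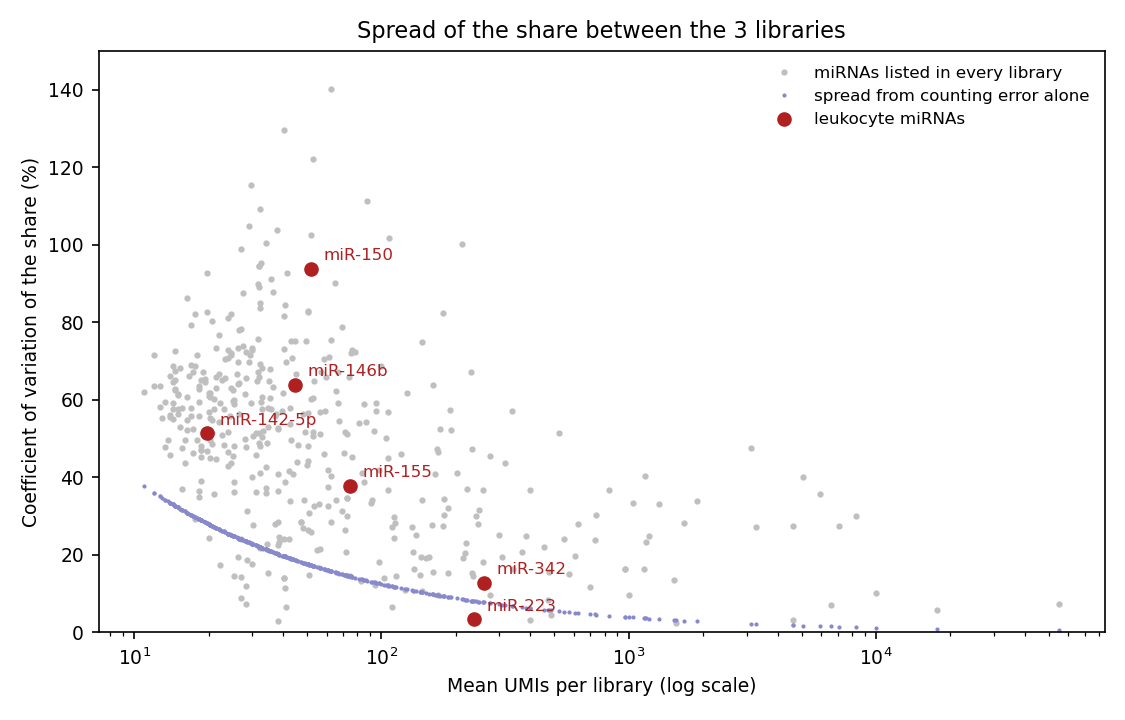
Coefficient of variation of the share between the 3 libraries (%) against the mean UMIs per library (log scale) for the 435 miRNAs listed in every library (grey), the spread that counting error alone would give (blue), and the 6 leukocyte miRNAs (red). MiR-223, at 3.34%, lies below the counting spread, and miR-150, at 93.8%, lies near the upper edge of the miRNAs.

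Ratios within a library do not depend on the library total. MiR-223 was taken as the denominator after the values had been seen. The ratio of miR-150 to miR-223 was 0.231 (95% exact interval 0.142 to 0.362), 0.0849 (0.0599 to 0.117) and 0.681 (0.517 to 0.895) in libraries 1, 2 and 3, and no interval overlapped with another. The ratio of miR-150 to miR-223 therefore differed between all 3 libraries by more than counting error. As the share of miR-223 was nearly constant, ratios to it largely repeat the differences in share. Such differences were seen for 83.7% of the 435 miRNAs listed in every library. How many of these would differ relative to miR-223 was not counted, so the ratios are no property of a cell lineage. The ratio of miR-146b to miR-223 was 0.115, 0.155 and 0.363, with library 3 (0.256 to 0.507) above both others. The ratio of miR-142-5p to miR-223 was 0.163, 0.0531 and 0.126, and only libraries 1 and 2 did not overlap. The ratio of miR-155 to miR-223 in library 3 (0.383 to 0.697) lay above that in library 2 (0.201 to 0.305), while the ratio of miR-342 to miR-223 was 0.856, 1.18 and 1.01 with overlapping intervals.

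**Figure D4:**
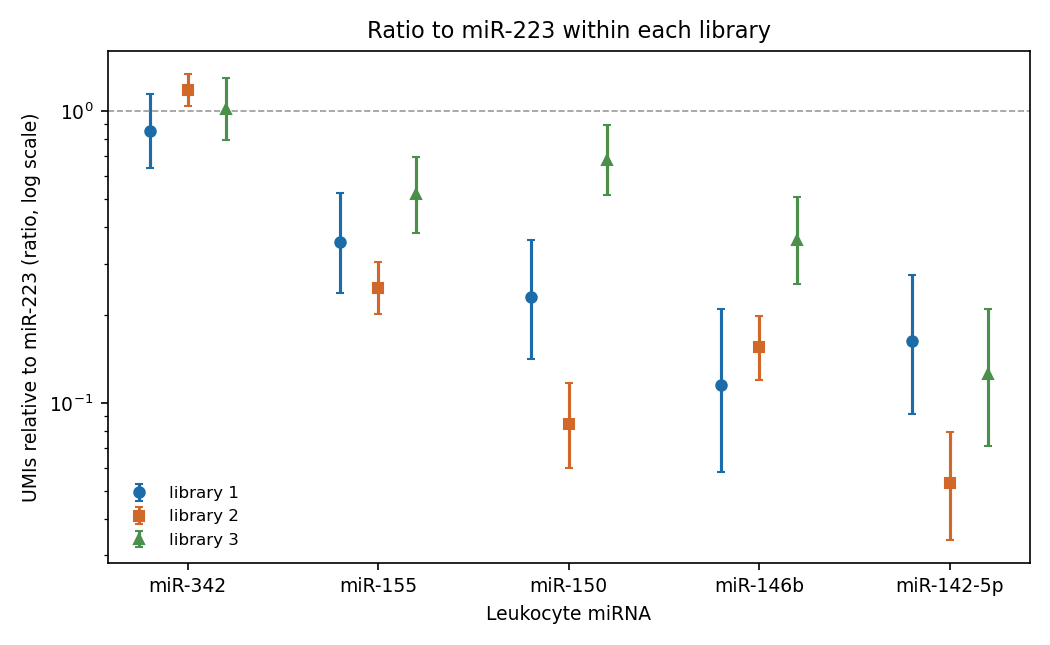
UMIs of 5 leukocyte miRNAs relative to those of miR-223 in the same library (ratio, log scale), with exact 95% intervals as bars and a dashed line at 1. The points of miR-342 lie between 0.856 and 1.18, while those of miR-150 lie at 0.231, 0.0849 and 0.681.

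Which library was the highest depended on the denominator for the summed share. Among the 6 miRNAs listed in every library, it also did so for miR-223, miR-155 and miR-142-5p. MiR-142-5p was highest in library 1 as a share of mature miRNA UMIs and in library 3 as a share of all UMIs. MiR-342 was highest in library 2 with every denominator. Relative to all miRNA and Rfam UMIs, miR-223 had 95.4, 204 and 140 CPM and miR-342 had 81.6, 241 and 142 CPM, so that both were highest in library 2. With library totals scaled by TMM, library 2 had a factor of 0.561. The level of miR-223 was then 0.0992%, 0.225% and 0.101% of the scaled total, with a coefficient of variation of 50.9%. The near-constant level of miR-223 thus held for the share of mature miRNA UMIs and not for these 2 denominators. MiR-150 was highest in library 3 in each case, with 22.0, 17.3 and 95.2 CPM of all UMIs, and 0.0229%, 0.0191% and 0.0687% of the TMM-scaled totals.

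**Figure D5:**
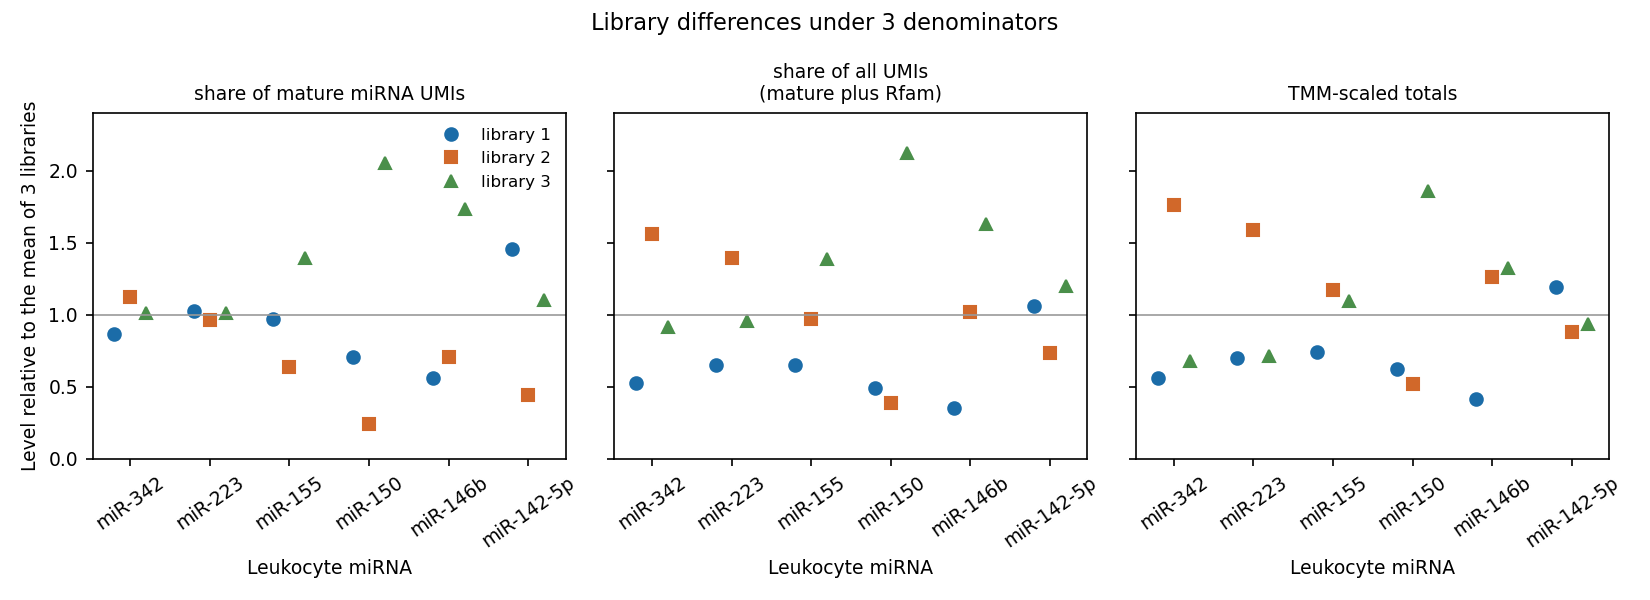
Level of 6 leukocyte miRNAs in each library relative to the mean of the 3 libraries, as a share of mature miRNA UMIs (left), as a share of all miRNA and Rfam UMIs (middle) and with TMM-scaled totals (right). Library 2 (squares) is the highest for miR-342 in all 3 panels, for miR-223 in the middle and right panels and for miR-155 in the right panel. Library 3 (triangles) is the highest for miR-150 in all 3 panels.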

How the data were processed

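The authors made libraries from 100 ng of RNA each with a miRNA kit that adds UMIs, trimmed adapters, removed low-quality reads, and mapped the reads to miRBase first, with Rfam as the next database. Bowtie 1.2.2, cutadapt 2.7 and FastQC are named in the submitters' processing notes. The deposited values are raw UMI counts that were not normalized, in a table of mature miRNAs and a table of Rfam sequences for each library. For the genome build, database versions and ambiguous reads, nothing is given in the sources used here. The leukocyte miRNAs, the marker lists and the rules were chosen with earlier results of these data known. The text names all 8 miRNAs, the 3 nearest in level to miR-155 and to the most abundant member, and of each marker list the 2 highest and the unlisted ones. Naming miRNAs of the same seed was part of the rule and was not done, as no sequences were used. Unlisted miRNAs entered sums as 0. Counting intervals were Wilson 95%, exact (Clopper-Pearson) for ratios. The interval rule was tested on simulated counts. TMM factors came from edgeR 4.0.16 and size factors from DESeq2 1.42.0, computed on those 435 miRNAs that every library lists, in R 4.3.3. Other steps used scipy 1.17.1, numpy 2.4.6, pandas 2.3.3 and matplotlib 3.10.9 in Python 3.11.15. Neighbouring levels were compared by exact sign permutation with Benjamini-Hochberg adjustment. The alternatives were other denominators, scalings, intervals and minimums, pooled UMIs, and leaving out each library.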

Additional observations from a re-analysis of the deposited data

How the results depend on the processing

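No paired comparison of groups was possible because there was only 1 group of libraries. The summed share of the leukocyte miRNAs, 0.414%, was 0.0461% of all miRNA and Rfam UMIs and 1.18% without the 10 most abundant miRNAs in the denominator, both by construction. It was between 0.361% and 0.442% when 1 library was left out. With at least 30 UMIs in every library, 3 of the 6 miRNAs were left, and 1 of these (miR-155) had intervals that did not overlap, beside 84.0% of all 188 miRNAs at that minimum. When 1 library was left out, 2 to 4 had such intervals, 2 without library 2 or 3 (miR-150 was in each of these sets), and 2 to 5 of the 7 pairs of neighbours kept 1 order, since fewer libraries have to agree. With TMM, the 4 miRNAs with separate intervals were miR-223, miR-150, miR-342 and miR-146b. With DESeq2 size factors, miR-155 was added to these. Among all 435, the share with separate intervals was 54.5% and 54.7% under these scalings, and 63.4%, 22.5% and 75.6% without library 1, 2 and 3. Over all alternatives, shares of single miRNAs moved by more than 1 SD in 17 cases and by less in 55, and coefficients of variation moved by over 1.5 times in 13 cases and by less in 11. Leaving out 1 of 3 libraries cannot move a mean by 1 SD. MiR-142 and miR-146a, with under 30 UMIs in every library, are limited by depth.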

Other observations

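Of the erythroid list, miR-486 had 25, 37 and 31 UMIs in libraries 1, 2 and 3, a mean of 0.0242% ± 0.0124 (SD, n = 3) of the mature miRNA UMIs, while miR-451 and miR-144, the defining miRNAs of red cells, had at most 10 UMIs in each library. The endothelial and stromal list held 0.0555% ± 0.0308, with 4 of 7 members listed in any library, led by miR-143 (0.0225% ± 0.0120) and miR-214 (0.0154% ± 0.0241). MiR-214 had 44 of its UMIs in library 3 and was unlisted in library 1. The endothelial miR-126-3p and miR-126-5p and the stromal miR-199a-3p were not listed in any library.

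The other inflammation-induced miRNAs held 0.382% ± 0.0335, nearly all of it miR-21-5p (0.358% ± 0.0422) and followed by miR-212 (0.0132% ± 0.00891), and miR-147 was not listed in any library. The muscle list held 0.0217% ± 0.0156, with miR-1 (0.0122% ± 0.00764) and miR-133a (0.00561% ± 0.00972), which was listed in library 1 only. The liver miR-122 held 0.00814% ± 0.0102. The brain list held 0.0116% ± 0.0149, with miR-124a and miR-124b at 11 UMIs each in library 1 only, and miR-9-5p at 24 UMIs in library 2 only. MiR-9-5p also belongs to the other inflammation-induced list, so its UMIs count in both sums. The leukocyte list lay below the other inflammation-induced list in library 1 (0.366% against 0.395%) and library 2 (0.356% against 0.407%) and above it in library 3 (0.518% against 0.344%). The lists differ in their number of members, so their sums are descriptions.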
